A study of Homo sapiens with 6 samples.

Results

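The tumour necrosis factor (TNF) superfamily of ligands and receptors was examined in MOLM-13 cells, an acute myeloid leukaemia line that carries the MLL-AF9 translocation, after knockdown of LAMP5. The members were the rows whose gene symbol begins with TNFRSF or TNFSF and a number, together with TNF, LTA, LTB, LTBR, CD40, CD27, CD70, FAS, FASLG, NGFR, TRADD and FADD. These were 49 of the 39771 rows of the deposited table. Of them, 44 were single protein-coding genes and 5 were antisense, divergent or read-through rows. The shLAMP5 group held 4 libraries of cells that received a lentiviral short hairpin RNA against LAMP5, and the shNT group held 2 libraries of cells that received a non-targeting hairpin. Both groups were grown in RPMI medium with serum and selected with puromycin before harvest, so the controls had also been transduced and selected. The libraries are called by their group and the number in their titles. The labels do not give the hairpin or the harvest time of a single library, nor whether replicate libraries are separate cultures. All p-values therefore measure the spread between these libraries of 1 cell line, which may be technical.

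Ligands of the TNF superfamily are mostly trimeric membrane proteins, and some are released by proteases. Receptors with a death domain recruit the adaptors FADD or TRADD and can start caspase activation. Receptors without one bind TRAF proteins and lead to the NF-kB and kinase pathways, and decoy receptors take up ligand without signalling to death. In blood the family governs lymphocyte survival, co-stimulation and the inflammatory response of monocytes. The series title names inflammatory signalling, and the comparison asks how the RNA of the family differs when LAMP5 is knocked down.

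Expression is given in TPM, transcript abundance scaled for length and to a fixed total per library, so that levels can be compared between genes. The deposited values of a library summed to between 897026 and 912565 TPM, and between 12192 and 12661 rows reached 1 TPM. TPM keeps no read number, so depth is unknown. LAMP5, a lysosome-associated membrane protein and the targeted gene, measured 80.6, 65.6, 68.8 and 86.7 TPM in shLAMP5 1 to 4, against 170 and 282 TPM in shNT 1 and 2. Every shLAMP5 value was below the lower shNT value, and the ratio of the TPM means was 0.333 (log2 fold change -1.54, SE 0.25, limma adjusted p 0.252). The library shLAMP5 2 stood apart from the other shLAMP5 libraries, with a Spearman correlation across genes of 0.928 to 0.942 with them, against 0.956 to 0.986 among those 3. Similarity did not follow the groups, since shLAMP5 2 correlated best with shNT 1, at 0.957, and shLAMP5 1 and 4 correlated with shNT 2 at 0.979 and 0.973, above their 0.956 and 0.965 with shLAMP5 3. Its median scaling factor was 0.826, against 0.998 to 1.07 in the other 5 libraries. A level of 1 TPM does not single out myeloid cells, since the natural killer cell markers NKG7, GNLY and NCAM1 reached it in every library. The 7 myeloid markers listed for the line all reached it in every library too. By group means the highest were SPI1 (238 to 466 TPM in shLAMP5 and 205 to 280 TPM in shNT) and CD33 (61.7 to 141 TPM in shLAMP5 and 78.3 to 108 TPM in shNT). The lowest was ANPEP, with 2.49 to 5.08 TPM in shLAMP5 and 2.07 and 1.04 TPM in shNT 1 and 2. MPO, MEIS1, CEBPA and HOXA9 lay between 5.51 and 94.7 TPM over the libraries of both groups.

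Most of the family that was expressed had higher values after LAMP5 knockdown, and no member passed the test. A member was tested when it reached 1 TPM in at least 2 libraries, which 28 of 49 did. Each log2 fold change given here is the mean log2(TPM + 1) of shLAMP5 less that of shNT, and the added 1 TPM makes it too small for low genes. None of the 28 passed a limma adjusted p of 0.05, the smallest was 0.491, and 0% of the 13072 genes tested passed it. At an unadjusted limma p under 0.05 there were 6 members higher in shLAMP5 and 0 lower, against 3.72% of genes higher, 5.25% lower and 8.97% either way. The groups were apart, with every shLAMP5 library above the higher shNT library, for 10 members, against 8.25% of all genes tested, and apart in the other direction for 0 members, against 13.5% of all genes tested. The 10 were TNFSF13B, CD70, TNFSF9, FAS, TNFRSF10B, TNFRSF10C, TNFRSF14, TNFRSF8, TNFRSF9 and TNFRSF13C. The last 3 were below 1 TPM in both shNT libraries and passed the filter through shLAMP5 alone, so their direction was partly set by it. Among the other 25 members tested, 7 had groups apart and 5 had an unadjusted p under 0.05. Positive log2 fold changes were found in 23 of the 28, with a median of 0.34, beside 49.3% and -0.006 for all genes. Without the 3 members that passed the filter through shLAMP5 alone, 20 of 25 were positive and the median was 0.30. The median of the 28 was 0.22 without shLAMP5 3 and between 0.32 and 0.37 without any other library. The count of 6 depended on the libraries used. Without shLAMP5 2 it was 12 of 27 members, beside 17.6% of all genes, and without shLAMP5 3 it was 4 of 27, beside 6.34%. A fit without an shNT library keeps 1 control, so its counts are left out here and no conclusion is drawn from them.

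**Figure D1:**
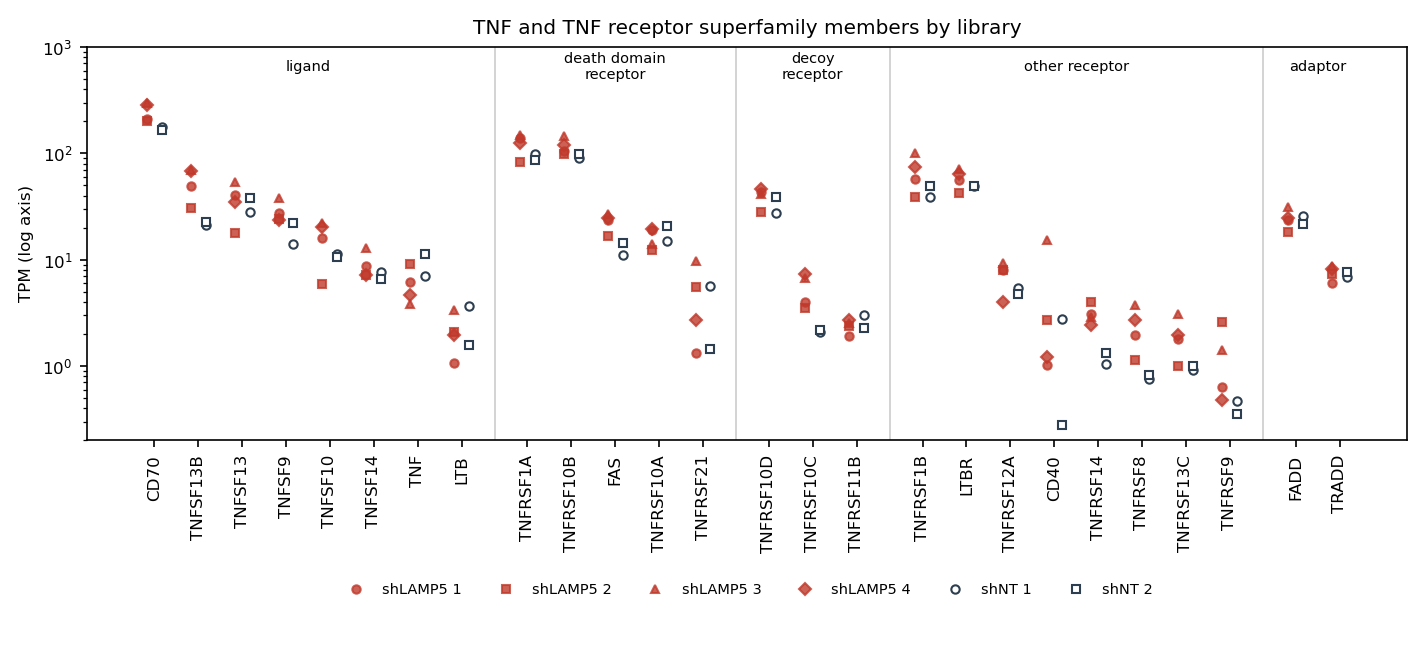
TPM on a log axis in every library for the 26 protein-coding members tested, grouped by role, with shLAMP5 libraries as filled red marks left of the open shNT marks and 1 mark shape per library number. TNFSF13B, FAS, TNFRSF10C and TNFRSF14 have all 4 red marks above both open marks, while TNF, LTB and CD40 overlap.

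**Figure D2:**
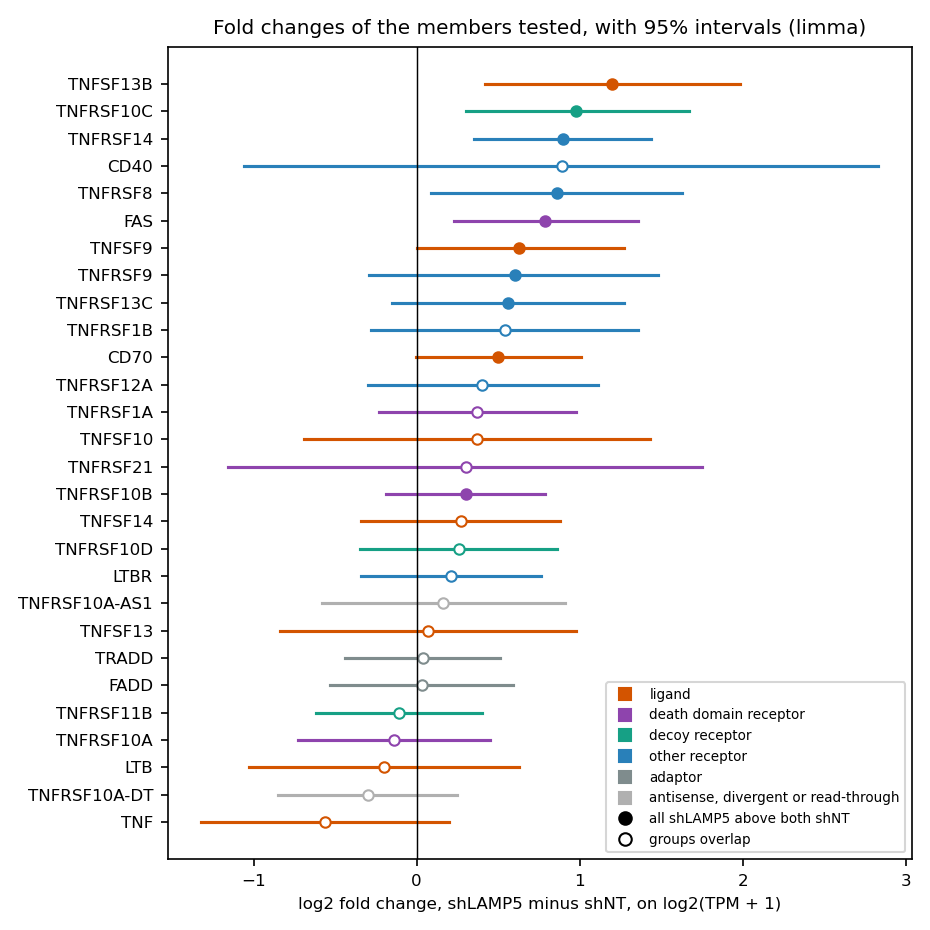
Log2 fold change (shLAMP5 minus shNT) of the 28 members tested with its 95% interval from limma, coloured by role. Filled points are the 10 members whose shLAMP5 values all exceed the higher shNT value. Estimates run from -0.56 for TNF to 1.20 for TNFSF13B.

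Of the 16 ligands, 8 reached 1 TPM in every library and the other 8 were not tested. CD70, the ligand of the lymphocyte receptor CD27, was the most abundant member of the family. It measured 211, 200, 295 and 283 TPM in shLAMP5 1 to 4, against 176 and 167 TPM in shNT 1 and 2. The groups did not overlap, and the 2 shNT libraries lay close together. The means were 247 ± 48.8 TPM in shLAMP5 (SD, n = 4) and 172 ± 6.73 TPM in shNT (SD, n = 2), with a log2 fold change of 0.50 (SE 0.22, limma p 0.0518, adjusted p 0.554). By its shNT mean CD70 ranked 633 of the 39771 rows.

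TNFSF13B encodes BAFF, the survival factor of B cells that monocytes and other myeloid cells make. It measured 49.3, 30.3, 69.8 and 67.8 TPM in shLAMP5 1 to 4, against 21.2 and 22.7 TPM in shNT 1 and 2. The lowest shLAMP5 library was shLAMP5 2, and it still lay above both controls. The mean was 54.3 ± 18.5 TPM in shLAMP5 (SD, n = 4) and 21.9 ± 1.07 TPM in shNT (SD, n = 2), a ratio of 2.48. Its log2 fold change of 1.20 (SE 0.34, 95% interval 0.42 to 1.98) was the largest of the 28 members. Its limma p was 0.00757 before adjustment and 0.505 after it, and the exact two-sided permutation p was 0.133. With library weights estimated from the data the adjusted p was 0.0302, and 2 of the 28 members, TNFSF13B and FAS, passed, against 1.61% of all genes. Leaving out single libraries gave log2 fold changes of 1.06 to 1.45. TNFSF13, the related ligand APRIL, measured 40.8, 18, 53.7 and 34.8 TPM in shLAMP5 1 to 4, against 28.3 and 37.9 TPM in shNT 1 and 2. Its groups overlapped, with shLAMP5 2 below both controls and shLAMP5 1 and 3 above them (log2 fold change 0.067, limma adjusted p 0.975). Reads may be shared between TNFSF13, TNFSF12 and their read-through transcript, which was listed at 0 in every library, so the values of these 3 rows are uncertain.

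TNFSF9, the ligand of the co-stimulatory receptor 4-1BB, measured 27.7, 23.9, 38.3 and 23.7 TPM in shLAMP5 1 to 4, against 14 and 22.1 TPM in shNT 1 and 2. The groups were apart by a small gap, since shNT 2 lay just below shLAMP5 4. Its log2 fold change of 0.63 (SE 0.27, limma p 0.0491, adjusted p 0.554) became 0.32 without shNT 1 and 0.95 without shNT 2. TNFSF10 encodes TRAIL, which induces apoptosis through death receptors. It measured 15.9, 5.93, 22.3 and 20.1 TPM in shLAMP5 1 to 4, against 11.4 and 10.5 TPM in shNT 1 and 2. Libraries shLAMP5 1, 3 and 4 lay above both controls and shLAMP5 2 below both, so that the fold change of 0.37 on the log2 scale (adjusted p 0.841) became 0.76 without shLAMP5 2 and 0.17 without shLAMP5 3. TNFSF14, the ligand LIGHT, measured 8.71, 7.25, 13 and 7.15 TPM in shLAMP5 1 to 4, against 7.73 and 6.56 TPM in shNT 1 and 2. Its groups overlapped, and its log2 fold change of 0.27 was 0.095 without shLAMP5 3.

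TNF, the inflammatory cytokine that names the family, had lower values in most of the shLAMP5 libraries. It measured 6.21, 9.15, 3.86 and 4.68 TPM in shLAMP5 1 to 4, against 7.05 and 11.2 TPM in shNT 1 and 2. The groups overlapped because shLAMP5 2 lay between the controls, while the other 3 shLAMP5 libraries lay below both. TNF had a log2 fold change of -0.56 (SE 0.33, 95% interval -1.32 to 0.20, limma adjusted p 0.639), with an exact two-sided permutation p of 0.2. It was -0.86 without shNT 1, -0.26 without shNT 2 and -0.76 without shLAMP5 2. LTB, the membrane anchor of the lymphotoxin heterotrimer, measured 1.07, 2.08, 3.36 and 1.96 TPM in shLAMP5 1 to 4, against 3.63 and 1.59 TPM in shNT 1 and 2. Its 2 controls differed more than the groups did, and the sign of its log2 fold change of -0.20 turned without shNT 1, to 0.22.

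The stretches before the transcription start are shown for the 3 members with groups apart and the smallest limma p among those with an entry in the RefSeq promoter table, and for TNF as the member with the lowest fold change. Each is the 250 bases before the most upstream RefSeq start, in build GRCh38.p14, written 5′ to 3′. The expression table itself was made with another build, and these coordinates come from RefSeq alone. Capitals mark matches to 3 motifs searched on both strands, the NF-kB consensus, the AP-1 motif TGANTCA and the interferon-response motif, which is GAAA, any 2 bases and GAAA again.
TNFSF13B, chr13:108269379-108269628, plus strand: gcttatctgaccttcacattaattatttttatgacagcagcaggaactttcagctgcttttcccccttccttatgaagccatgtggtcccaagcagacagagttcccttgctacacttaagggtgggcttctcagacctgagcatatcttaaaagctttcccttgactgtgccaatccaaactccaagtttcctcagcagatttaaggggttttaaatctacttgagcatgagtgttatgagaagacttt
TNFRSF14, chr1:2556121-2556370, plus strand: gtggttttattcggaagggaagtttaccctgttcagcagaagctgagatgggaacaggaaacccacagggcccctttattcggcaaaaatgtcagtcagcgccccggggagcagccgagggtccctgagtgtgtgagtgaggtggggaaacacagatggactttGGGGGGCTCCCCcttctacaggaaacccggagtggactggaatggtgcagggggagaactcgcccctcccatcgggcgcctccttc
FAS, chr10:88990548-88990797, plus strand: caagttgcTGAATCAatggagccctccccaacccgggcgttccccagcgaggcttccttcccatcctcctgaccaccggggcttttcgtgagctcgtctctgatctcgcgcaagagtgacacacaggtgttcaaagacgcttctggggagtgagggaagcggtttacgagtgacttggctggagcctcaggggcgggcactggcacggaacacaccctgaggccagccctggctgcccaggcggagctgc
TNF, chr6:31575315-31575564, plus strand: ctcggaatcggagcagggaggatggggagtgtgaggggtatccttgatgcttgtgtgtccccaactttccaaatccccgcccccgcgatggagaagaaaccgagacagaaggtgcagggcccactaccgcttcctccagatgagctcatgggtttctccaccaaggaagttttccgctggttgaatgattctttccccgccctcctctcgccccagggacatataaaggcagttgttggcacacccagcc
TNFRSF14 had 3 overlapping NF-kB matches, the first of them 86 bases before the start, FAS had 1 AP-1 match 242 bases before it, and the windows of TNFSF13B and TNF hold none of these letters. The table had a window for 30 of the 49 members. An NF-kB match was found in 5 of these 30 (LTB, TNFRSF14, TNFRSF9, TNFSF13 and TNFSF14), against 9.58% of the 27305 genes in the table. An AP-1 match was found in 5 of 30, against 6.57% of all genes, and an interferon-response match in 4 of 30 (FASLG, TNFRSF1B, TNFSF10 and TNFSF9), against 3.07%. A match describes letters and shows no binding.

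Of the 7 death domain receptors, 5 were expressed at 1 TPM or more in every library. FAS, the receptor of FASLG and a known p53 target, measured 23.4, 16.6, 26.8 and 24.9 TPM in shLAMP5 1 to 4, against 11 and 14.5 TPM in shNT 1 and 2. The groups did not overlap, with shLAMP5 2 nearest to the controls. The means were 22.9 ± 4.45 TPM in shLAMP5 (SD, n = 4) and 12.7 ± 2.5 TPM in shNT (SD, n = 2), a ratio of 1.8. FAS had a log2 fold change of 0.79 (SE 0.24, 95% interval 0.23 to 1.36, limma p 0.0121, adjusted p 0.505). Its permutation p, exact and two-sided, was 0.0667, which is as low as 6 libraries in groups of 4 and 2 can give. The fold change ranged from 0.60 to 0.98 when single libraries were left out, and with library weights the adjusted p was 0.0464.

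TNFRSF1A, the widely expressed TNF receptor, measured 138, 83, 149 and 125 TPM in shLAMP5 1 to 4, against 99.4 and 87.2 TPM in shNT 1 and 2. Library shLAMP5 2 lay below both controls and the other 3 above them, and the log2 fold change was 0.37 (SE 0.26, limma adjusted p 0.692). TNFRSF10B, the TRAIL receptor DR5, measured 105, 99.5, 147 and 119 TPM in shLAMP5 1 to 4, against 90.6 and 98.5 TPM in shNT 1 and 2. The groups were apart by the narrow margin between shLAMP5 2 and shNT 2 (log2 fold change 0.30, or 0.19 without shLAMP5 3, adjusted p 0.695). TNFRSF10A, the other TRAIL receptor with a full death domain, measured 19.1, 12.3, 14 and 19.4 TPM in shLAMP5 1 to 4, against 15 and 20.7 TPM in shNT 1 and 2. Its groups overlapped, with a log2 fold change of -0.14 that became 0.078 without shNT 2. TNFRSF21, the receptor DR6, measured 1.33, 5.51, 9.78 and 2.71 TPM in shLAMP5 1 to 4, against 5.69 and 1.44 TPM in shNT 1 and 2. Both groups held high and low libraries, and the log2 fold change of 0.30 (SE 0.63) had no settled sign.

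Among the decoy receptors, TNFRSF10C, a TRAIL receptor tethered to the membrane by a lipid anchor and without a death domain, was the one with groups apart. It measured 4.04, 3.53, 6.76 and 7.26 TPM in shLAMP5 1 to 4, against 2.11 and 2.16 TPM in shNT 1 and 2. All 4 shLAMP5 libraries lay above both controls, including shLAMP5 2, and the controls were nearly equal. TNFRSF10C had a log2 fold change of 0.98 (SE 0.30, limma p 0.0109, adjusted p 0.505), with a range of 0.84 to 1.13 when single libraries were left out. TNFRSF10D, a TRAIL receptor with a truncated death domain, measured 43.6, 27.8, 41.4 and 46.7 TPM in shLAMP5 1 to 4, against 27.5 and 38.6 TPM in shNT 1 and 2. Its groups overlapped, and the log2 fold change of 0.26 was 0.021 without shNT 1. TNFRSF11B, osteoprotegerin, measured 1.93, 2.37, 2.53 and 2.68 TPM in shLAMP5 1 to 4, against 3.03 and 2.28 TPM in shNT 1 and 2, with overlapping groups (log2 fold change -0.11, adjusted p 0.911). The TRAIL receptor genes are close paralogs, and reads may be split between them.

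Among the 15 other receptors, 8 were tested and all 8 had positive log2 fold changes, 3 of them with shNT values below 1 TPM. TNFRSF14, the receptor HVEM of LIGHT, measured 3.08, 4, 2.9 and 2.41 TPM in shLAMP5 1 to 4, against 1.05 and 1.33 TPM in shNT 1 and 2. All shLAMP5 libraries lay above both controls, and here shLAMP5 2 was the highest of them. The means were 3.1 ± 0.665 TPM in shLAMP5 (SD, n = 4) and 1.19 ± 0.198 TPM in shNT (SD, n = 2), a ratio of 2.61. The log2 fold change of 0.90 (SE 0.24, 95% interval 0.35 to 1.44) had the smallest limma p of the family, 0.00535, with an adjusted p of 0.491. Its exact two-sided permutation p was also 0.0667.

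TNFRSF1B, the TNF receptor of immune cells, measured 57.5, 38.7, 100 and 74.6 TPM in shLAMP5 1 to 4, against 38.9 and 49.1 TPM in shNT 1 and 2. Libraries shLAMP5 1, 3 and 4 lay above both controls and shLAMP5 2 below both, just under shNT 1 (log2 fold change 0.54, SE 0.36, limma adjusted p 0.680, and 0.32 on the log2 scale without shLAMP5 3). LTBR, the lymphotoxin beta receptor, measured 55.6, 42.1, 70.5 and 64.3 TPM in shLAMP5 1 to 4, against 49.5 and 49.1 TPM in shNT 1 and 2. It showed the same order, with shLAMP5 2 alone below the controls (log2 fold change 0.21, or 0.11 without shLAMP5 3, adjusted p 0.828). After median scaling, which divides each library by its own factor, TNFRSF1A and LTBR also had groups apart, TNFRSF9 no longer did, and the count of 10 became 11, beside 12.6% of all genes. TNFRSF12A, the receptor of TWEAK, measured 7.97, 7.96, 9.37 and 3.99 TPM in shLAMP5 1 to 4, against 5.41 and 4.76 TPM in shNT 1 and 2. Here shLAMP5 4 alone lay below the controls, and the log2 fold change was 0.40, or 0.63 without shLAMP5 4.

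Low receptors included TNFRSF8, the receptor CD30, which measured 1.95, 1.13, 3.72 and 2.73 TPM in shLAMP5 1 to 4, against 0.751 and 0.825 TPM in shNT 1 and 2 (log2 fold change 0.86, limma adjusted p 0.531). TNFRSF13C, the BAFF receptor, measured 1.8, 1.01, 3.08 and 1.97 TPM in shLAMP5 1 to 4, against 0.912 and 0.992 TPM in shNT 1 and 2 (log2 fold change 0.56, adjusted p 0.616). TNFRSF9, the receptor 4-1BB, measured 0.631, 2.57, 1.41 and 0.48 TPM in shLAMP5 1 to 4, against 0.472 and 0.356 TPM in shNT 1 and 2 (log2 fold change 0.60, adjusted p 0.676). In all 3 the gap between the groups was small, and for TNFRSF9 shLAMP5 4 lay just above shNT 1.

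CD40, the co-stimulatory receptor of antigen-presenting cells, had the widest interval of the 28 members tested. It measured 1.02, 2.72, 15.3 and 1.22 TPM in shLAMP5 1 to 4, against 2.78 and 0.277 TPM in shNT 1 and 2. One shLAMP5 library was far above the rest, and the controls differed widely from each other. The log2 fold change of 0.89 had an SE of 0.84 (95% interval -1.06 to 2.83, limma adjusted p 0.790), and became 0.22 without shLAMP5 3, 0.10 without shNT 2 and 1.67 without shNT 1. CD40, TNFRSF21 and LTB, set side by side after their values were seen, each had a lower value in shNT 2 than in shNT 1, and their highest shLAMP5 value in shLAMP5 3. The low member TNFRSF6B, decoy receptor 3, had 1.01 TPM in shLAMP5 2, 0.469 TPM in shLAMP5 3 and 0.854 TPM in shNT 1, and was listed at 0 in shLAMP5 1, shLAMP5 4 and shNT 2.

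**Figure D3:**
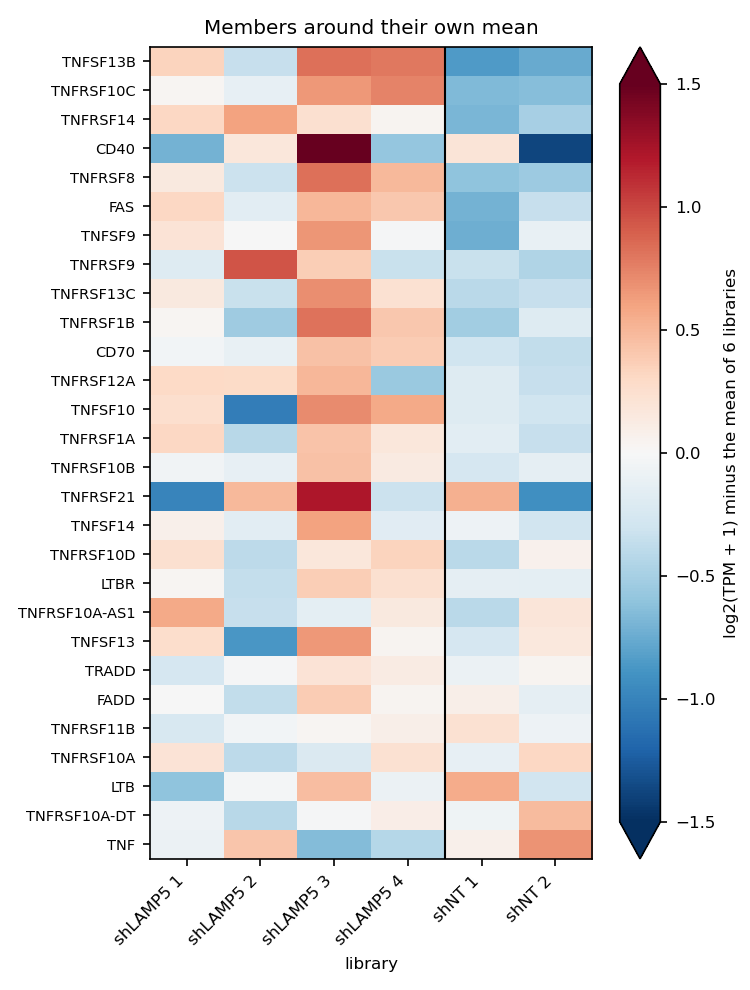
Each of the 28 members tested as log2(TPM + 1) minus its own mean over the 6 libraries, with shLAMP5 1 to 4 left of the black line and shNT 1 and 2 right of it, rows ordered by fold change and colours capped at 1.5 either way. The shLAMP5 3 column is red in most upper rows, the shLAMP5 2 column is pale or blue in many but red for TNFRSF14 and TNFRSF9, and CD40 and TNFRSF21 differ between the 2 shNT columns.

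The adaptors had fold changes near 0. FADD, which links death receptors to caspase-8, measured 23.8, 18.3, 31.5 and 24.6 TPM in shLAMP5 1 to 4, against 25.5 and 21.8 TPM in shNT 1 and 2. TRADD, the adaptor of the TNF receptor complex, measured 6.08, 7.33, 8.72 and 8.17 TPM in shLAMP5 1 to 4, against 6.92 and 7.72 TPM in shNT 1 and 2. For both, the controls lay within the range of the shLAMP5 libraries. The log2 fold changes were 0.03 for FADD (95% interval -0.53 to 0.59) and 0.036 for TRADD (95% interval -0.44 to 0.51). Of the antisense and divergent rows at the TNFRSF10A locus, TNFRSF10A-AS1 had 3.08, 1.17, 1.49 and 2.06 TPM in shLAMP5 1 to 4, against 1.09 and 2.13 TPM in shNT 1 and 2. The higher of the TNFRSF10A-DT rows had 8.86, 6.81, 9.29 and 10.1 TPM in shLAMP5 1 to 4, against 8.92 and 13.4 TPM in shNT 1 and 2. Both rows had overlapping groups, and the log2 fold change of the TNFRSF10A-DT row, -0.30, was -0.57 without shNT 1 and -0.035 without shNT 2. No source used here says whether reads were assigned by strand, so these rows cannot be fully told apart from the genes they overlap.

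The other 21 members reached 1 TPM in at most 1 library, and their highest value was the 1.01 TPM of TNFRSF6B. FASLG, TNFSF8, TNFRSF13B and the TNFSF12-TNFSF13 read-through, 4 in all, were listed at 0 in every library. LTA, the soluble lymphotoxin, was listed at 0 in 5 libraries and at 0.0161 TPM in shLAMP5 4. CD27 lay between 0.0676 and 0.259 TPM in shLAMP5 and had 0.0389 and 0.179 TPM in shNT 1 and 2. TNFSF4, the ligand of OX40, had 0.539, 0.171, 0.896 and 0.795 TPM in shLAMP5 1 to 4, against 0.155 and 0.229 TPM in shNT 1 and 2, under the filter in every library. TNFSF12, the ligand TWEAK, stayed at or below 0.494 TPM, TNFRSF17, a receptor of BAFF and APRIL, at or below 0.0588 TPM, and TNFSF11, the ligand RANKL, at or below 0.0694 TPM in every library. Without a read number, an exact 0 may be a failed estimate.

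Ligands and receptors were then set beside each other in 31 known pairs of members. Both partners reached 1 TPM in every library in 10 pairs, the ligand alone in 8, the receptor alone in 6 and neither in 7. In the CD70 pair the ligand was far above the receptor, with CD70 at 247 TPM in shLAMP5 and 172 TPM in shNT, beside CD27 at means of 0.161 TPM in shLAMP5 and 0.109 TPM in shNT. BAFF was also above its receptors, with TNFSF13B at 54.3 TPM in shLAMP5 and 21.9 TPM in shNT, the BAFF receptor at 1.96 TPM in shLAMP5 and 0.952 TPM in shNT, and the receptor TNFRSF13B listed at 0 in every library. TNF showed the opposite arrangement. Its mean was 5.98 TPM in shLAMP5 and 9.12 TPM in shNT, beside TNFRSF1A at 124 TPM in shLAMP5 and 93.3 TPM in shNT and TNFRSF1B at 67.8 TPM in shLAMP5 and 44 TPM in shNT. The TRAIL ligand averaged 16 TPM in shLAMP5 and 11 TPM in shNT, under the 118 TPM in shLAMP5 and 94.5 TPM in shNT of its receptor TNFRSF10B and the 39.9 TPM in shLAMP5 and 33.1 TPM in shNT of TNFRSF10D. It was above TNFRSF10C, at 5.4 TPM in shLAMP5 and 2.13 TPM in shNT, and above TNFRSF11B, at 2.38 TPM in shLAMP5 and 2.65 TPM in shNT. TNFRSF10A was level with it in shLAMP5, at 16.2 TPM, and above it in shNT, at 17.9 TPM. These are RNA levels and give no measure of protein at the surface.

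**Figure D4:**
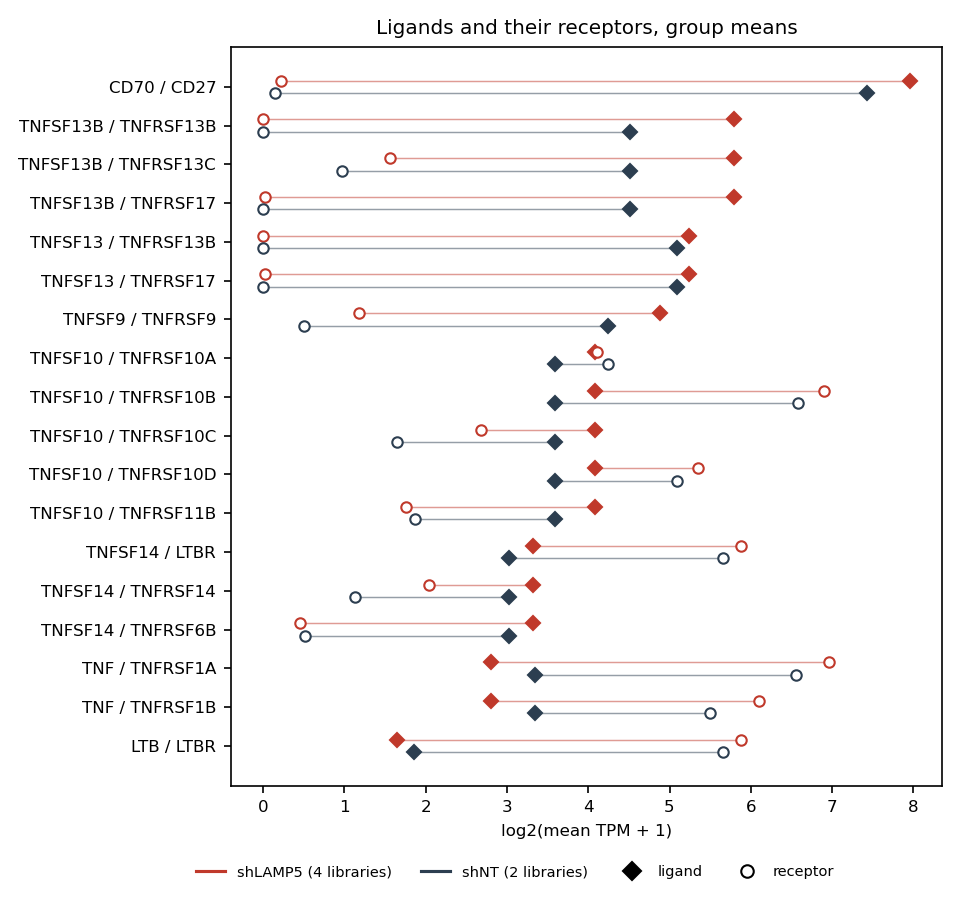
Group means as log2(mean TPM + 1) for the pairs whose ligand reached 1 TPM in every library, with the ligand as a diamond and the receptor as an open circle, shLAMP5 in red above shNT in dark blue. CD70 and TNFSF13B lie far right of their receptors, and TNF lies left of both of its receptors.

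The signalling machinery inside the cell had positive and negative values in near equal number. Of 38 genes listed for it, 37 were matched to a row and 33 were tested. Of these 33, 17 had positive log2 fold changes, the median was 0.061 and 0 passed the adjusted threshold in either direction. The groups were apart with shLAMP5 higher for 3 of the 33 and with shLAMP5 lower for 5, or 9.09% and 15.2%, beside 8.25% and 13.5% of all genes. OTULIN, which removes linear ubiquitin chains, had 21.9 to 27.7 TPM in shLAMP5 and 39.8 and 30.4 TPM in shNT 1 and 2 (log2 fold change -0.48, or -0.29 without shNT 1, limma p 0.0430, adjusted p 0.541). For SPATA2, a partner of the deubiquitinase CYLD, it was -0.60, for the kinase MAP3K8 0.61 and for the necroptosis kinase RIPK3 0.52, none past the test. The MAP3K8 value rested on 1 control, as it was 0.17 without shNT 2 and 1.04 without shNT 1. The caspase-8 gene CASP8 had a log2 fold change of 0.34, its inhibitor CFLAR 0.30 and RIPK1, a kinase of the TNF receptor complex, 0.34. These were 0.21 for CASP8 and 0.19 for RIPK1 without shLAMP5 3, and for CFLAR 0.19 without shLAMP5 4 and 0.46 without shLAMP5 2. TRAF1 stayed at or below 1.81 TPM and BIRC3 at or below 0.436 TPM in every library.

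Genes that shed or process the ligands and receptors had positive values in 7 of 7 tested of 9 listed, and 0 passed the threshold. Their log2 fold changes had a median of 0.42, or 0.24 without shLAMP5 3. RHBDF2, 1 of the 7 or 14.3%, had groups apart with shLAMP5 higher, and 0 had shLAMP5 lower. The shares of all genes were 8.25% higher and 13.5% lower. ADAM17, the protease that releases TNF and cleaves its receptors, measured 24.9, 15.4, 23.6 and 21.6 TPM in shLAMP5 1 to 4, against 15.4 and 15.1 TPM in shNT 1 and 2. Libraries shLAMP5 1, 3 and 4 were higher and shLAMP5 2 was level with the controls, with a log2 fold change of 0.44 (limma p 0.0944, adjusted p 0.606). ADAM10, the related protease, had a log2 fold change of 0.42 and did not pass. Of 40 genes that TNF is known to induce, 36 were matched to a row and 24 were tested. Positive values were found in 21 of the 24, beside 49.3% of all genes, the median was 0.37 and 0 passed. ICAM1, TNFAIP2, CCL20 and BCL2A1, 4 of the 24 or 16.7%, had groups apart with shLAMP5 higher, and 0 had shLAMP5 lower. One of the 24, CCL20, passed the filter through shLAMP5 alone, and without it 20 of 23 were positive with a median of 0.37. BCL2A1, an anti-apoptotic gene, had 19.6 to 35.9 TPM in shLAMP5 and 11.8 and 2.86 TPM in shNT 1 and 2 (log2 fold change 1.87, adjusted p 0.491). This value was 1.00 without shNT 2 and 2.73 without shNT 1. TNFAIP2, another gene that TNF induces, had a value of 0.79. The chemokine CXCL10 measured 0.0985, 3.32, 0.915 and 0.406 TPM in shLAMP5 1 to 4, against 11.9 and 0.241 TPM in shNT 1 and 2. One control was far above every other library, and the log2 fold change of -1.08 was -2.77 without shNT 2. EGR1, an immediate early gene, had -0.57, which was 0.18 without shNT 2 and -1.33 without shNT 1. The median of the TNF-induced list rested on 1 control library, as it was -0.064 without shNT 2 and 0.66 without shNT 1.

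**Figure D5:**
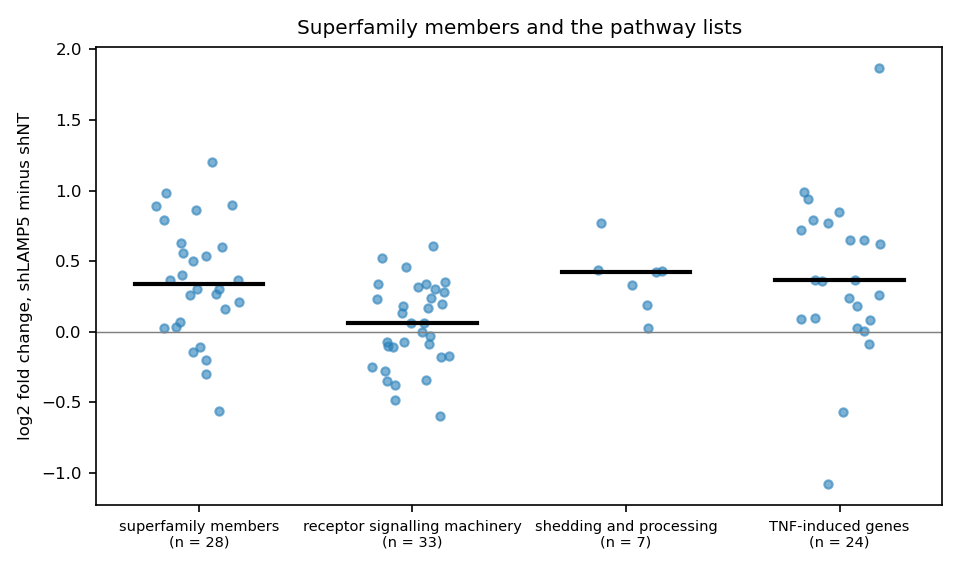
Log2 fold change (shLAMP5 minus shNT) of every gene tested among the superfamily members and the 3 pathway lists, with the median as a black bar. The medians are 0.34 for the superfamily, 0.061 for the receptor signalling machinery, 0.42 for shedding and processing and 0.37 for the TNF-induced genes.

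Among the cell type markers, 0 monocyte and 0 dividing cell genes passed the adjusted threshold without library weights. With them, CD68 (limma adjusted p 0.0242) and FCGR1A (0.0409) passed, and CSF1R, S100A8, S100A9, ITGAM and LYZ did not. All the dividing cell markers passed, at a limma adjusted p of 0.0302 for TOP2A, 0.0298 for AURKA, 0.0318 for CCNB1 and 0.0487 for MKI67. The share of all genes was 1.61%. Of 8 monocyte and macrophage markers, 7 were tested and 7 had positive log2 fold changes. The marker not tested was CD14, with 0.26 to 1.39 TPM in shLAMP5 and 0.292 and 0.136 TPM in shNT 1 and 2. The groups were apart for 3 of the 7, CD68, FCGR1A and CSF1R, or 42.9% beside 8.25% of all genes, and overlapped for S100A8, S100A9, ITGAM and LYZ. For CSF1R the margin was narrow, 21.1 TPM in shLAMP5 4 against 20.8 TPM in shNT 1, and its groups overlapped after median scaling. The summed level of the 8 markers was 1663 to 10666 TPM in shLAMP5 and 2226 to 6403 TPM in shNT, most of it LYZ, with the lowest sum in shLAMP5 2. CD68, a macrophage glycoprotein, had 107 to 278 TPM in shLAMP5 and 85.2 TPM in both shNT libraries. S100A9, a calcium-binding protein of myeloid cells, had 424, 54.1, 664 and 400 TPM in shLAMP5 1 to 4, against 58.2 and 140 TPM in shNT 1 and 2. Its partner S100A8 had 214, 27.3, 232 and 181 TPM in shLAMP5 1 to 4, against 32.2 and 71.4 TPM in shNT 1 and 2. For both, shLAMP5 2 lay below the controls and the other 3 shLAMP5 libraries above them. The 4 markers of dividing cells summed to 111 to 166 TPM in shLAMP5 and to 345 and 280 TPM in shNT 1 and 2. For all 4, or 100%, every shLAMP5 library lay below both shNT libraries, beside 13.5% of all genes tested. No monocyte, macrophage or dividing cell marker was listed at 0 in every library. Of the lymphoid markers, CD3E and MS4A1 stayed at or below 0.0489 and 0.035 TPM, and TRBC1 was listed at 0 throughout. Of 5 T cell markers 1 was tested, with summed levels of 1.94 to 8.7 TPM in shLAMP5 and 4 and 2.28 TPM in shNT 1 and 2, and of 4 B cell markers 1 was tested, with sums of 0.702 to 1.49 TPM in shLAMP5 and 0.706 and 0.473 TPM in shNT 1 and 2. Of 4 natural killer cell markers 3 were tested, with sums of 110 to 192 TPM in shLAMP5 and 103 and 69.4 TPM in shNT 1 and 2, most of it NKG7. GNLY and NKG7, 2 of these 3 or 66.7%, had groups apart with shLAMP5 higher, beside 8.25% of all genes. After median scaling the groups of NKG7 overlapped. Of 6 packaging cell and fibroblast markers 3 were tested, with sums of 26.7 to 37.7 TPM in shLAMP5 and 29.2 and 31.5 TPM in shNT 1 and 2. COL3A1 was listed at 0 throughout. KRT8, 1 of these 3 or 33.3%, had groups apart with shLAMP5 higher, beside 8.25% of all genes. So had ANPEP and HOXA9, 2 of the 7 myeloid markers listed for the line, or 28.6%. In neither list was a gene apart in the other direction. After median scaling the groups of KRT8 and HOXA9 overlapped. The part of these markers in the values of the superfamily was not tested. In bulk RNA, a change in the share of cells that express a gene and a change per cell cannot be told apart.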

How the data were processed

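RNA from 6 libraries of MOLM-13 was measured by sequencing. The authors deposited 1 table of 39771 Ensembl identifiers, read here as TPM because the values are fractional and sum to similar totals per library (897026 to 912565). No unit stands in its header. The tool kallisto and the build hg19 are named per the submitters' processing notes, and its version, transcript set and gene summary are not given there. Symbols were matched for 29895 rows. R 4.3.3 and limma 3.58.1 were used, with the group as sole factor and a trend of variance on level, fitted on log2(TPM + 1) to the 13072 genes at 1 TPM or more in at least 2 libraries, with Benjamini-Hochberg adjustment over all of them. The fit was tested on simulated data. Exact two-sided permutation tests used the absolute difference in mean log2(TPM + 1) over the 15 ways to draw 4 of 6 libraries. Promoter windows are from RefSeq (GRCh38.p14). Tables and figures were made with numpy 2.4.6, pandas 2.3.3 and matplotlib 3.10.9 under Python 3.11.15. The members, lists and tests were chosen with earlier results of these data known. Every member tested was named, with untested members that reached 1 TPM in 1 library or whose partner is named, and from each pathway list the 2 genes with the smallest p per direction and TRAF1, BIRC3, CFLAR, CASP8, RIPK1 and ADAM17. Alternatives were other pseudocounts, filters and scalings, library weights, the replicate number as a block, and leaving out each library. Tests that need counts were not run.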

Additional observations from a re-analysis of the deposited data

Results flagged for a closer look

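CD40 had 15.3 TPM in shLAMP5 3, far from the other 3 libraries of its group. The gap to the nearest of them was 0.881 of the range of the 4 libraries, above Dixon's 95% critical value for 4 samples. Of 29 genes looked at in this way, the 28 members tested and LAMP5, this was 1, and chance alone gives about 1 in 20.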

How the results depend on the processing

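TPM keeps no read number, so the precision of low members cannot be stated, and 2 control libraries carry every comparison. Of the 28 members, 14 could be fitted under all 14 alternatives, and 9 of these kept the sign of their log2 fold change. The other 14 did not reach 10 TPM in 2 libraries, and TNFRSF9 was also not fitted without shLAMP5 2 or shLAMP5 3. The member median of 0.34 was 0.16 over 45 members with no filter, 0.13 with the replicate number as a block, and 0.22 to 0.37 when single libraries were left out. With library weights LAMP5 was called (-1.40, limma adjusted p 0.0302), as were 210 genes, or 1.61%, and 2 members, or 7.14%. The 2 were TNFSF13B (1.43) and FAS (0.89). At an unadjusted limma p under 0.05 the weighted fit had 2857 genes, or 21.9%, and 13 members, or 46.4%. TNFRSF10A and TNFRSF21 turned sign there, to 0.065 and -0.14. Without a filter for low values 14 genes were called. In that fit 1761 genes, or 6.36%, and 4 of 45 members, or 8.89%, had an unadjusted limma p under 0.05. At a minimum of 10 TPM 3 of the 14 members tested, or 21.4%, did, beside 784 genes, or 10.2%. Without shLAMP5 3 there were 812 such genes, or 6.34%, and 4 such members, or 14.8%. Without shLAMP5 2 there were 2248 such genes, or 17.6%, and 12 such members, or 44.4%. The lower ends of the gene and member ranges that follow come from fits without an shNT library. Those fits keep 1 control, so nothing is concluded from these lower ends. Leaving out single libraries gave 408 to 2248 such genes and 2 to 12 such members, and a median of the TNF-induced genes of -0.064 to 0.66. Under it the log2 fold change ranged from -0.094 to 0.16 for FADD, -0.62 to 0.22 for LTB, -0.36 to 0.078 for TNFRSF10A, -0.13 to 0.46 for TNFRSF10A-AS1, -0.26 to 0.038 for TNFRSF11B, -0.43 to 1.02 for TNFRSF21, -0.14 to 0.36 for TNFSF13, -0.033 to 0.12 for TRADD and -1.33 to 0.18 for EGR1. The labels do not say whether equal replicate numbers pair the libraries, and only numbers 1 and 2 are shared. Same-numbered libraries deviated from their group means in opposite directions (correlations -0.52 and -0.474). With 2 shNT libraries the deviations of the controls mirror each other, so the correlations are not independent and cannot decide the pairing. With the replicate number as a block, 16 genes were called and the shedding and processing median was 0.085. In that fit 282 genes, or 2.16%, and 1 member, or 3.57%, had an unadjusted limma p under 0.05. Its fold changes rest on shLAMP5 1 and 2 against shNT 1 and 2, since the other replicate numbers occur in shLAMP5 alone. Under this block FADD had -0.17, LTBR -0.027, TNFRSF21 -0.056, TNFSF10 -0.15, TNFSF13 -0.26 and TRADD -0.11. The causes were not tested.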
